A study of Mus musculus with 8 samples.

Results

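Annexins are proteins that bind phospholipid membranes when calcium rises, through a conserved core of annexin repeats, and differ from each other mainly in their N-terminal ends. They organise membrane domains, take part in vesicle traffic and plasma membrane repair, and several of them dock S100 proteins, small calcium-binding partners. In the liver the family is spread over hepatocytes, bile duct cells, fibroblasts, endothelium and leukocytes, and annexin A1 is best known outside the cell, where it acts on formyl peptide receptors during the resolution of inflammation.

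The 8 annexins described here are Anxa1, Anxa2, Anxa3, Anxa4, Anxa5, Anxa6, Anxa7 and Anxa11, taken by gene symbol from a table of 26166 symbols. The rule is membership of the family and not a measured value, although the family was picked for description with earlier results of these data known. All 8 passed the filter on low counts, which left 12427 genes to test. The RNA came from livers of male C57BL/6N mice with diet-induced obesity (DIO), bought at 14 weeks of age and kept for 3 weeks on a diet with 60% of its energy as fat before dosing. One group of 4 mice received IXA4, a small molecule that activates the IRE1/XBP1s arm of the unfolded protein response. The dose was 50 mg/kg each day by intraperitoneal injection for 8 weeks, and the control group of 4 mice received vehicle. IXA4 was given in a mixture of DMSO, Kolliphor EL, ethanol and saline. Every mouse in both groups was obese and no lean liver is part of the comparison.

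Each library held 16986915 to 18390185 counts. Whole liver was sequenced, and the 8 hepatocyte markers examined summed to 110468 to 153499 CPM (reads scaled to a common library size after TMM normalization) over the 8 libraries. None of these 8 was called by edgeR, with log2 fold changes from -0.42 for Tat, a tyrosine-degrading enzyme, to 0.16 for Serpina1c, an antitrypsin, while Tat alone had an unadjusted p under 0.05 and was called lower by DESeq2. In bulk tissue, fewer cells of a type and less RNA per cell cannot be told apart. The replicate numbers on the count columns were not tied to single mice.

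To show where the annexin genes begin, upstream sequence is given for the member that was called higher (Anxa1), for the member that came closest to a lower call (Anxa11) and for Anxa2, the S100A10-binding annexin, as a contrast in motif content. The RefSeq promoter table covered 6 of the 8 members with 8 windows, each of 250 bases before and 50 after a transcription start, and only bases before the start are printed. Capitals mark the matches to the motifs searched, on either strand. Coordinates are those of GRCm38.p6.

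Anxa1, 250 bases at chr19:20390672-20390921, minus strand: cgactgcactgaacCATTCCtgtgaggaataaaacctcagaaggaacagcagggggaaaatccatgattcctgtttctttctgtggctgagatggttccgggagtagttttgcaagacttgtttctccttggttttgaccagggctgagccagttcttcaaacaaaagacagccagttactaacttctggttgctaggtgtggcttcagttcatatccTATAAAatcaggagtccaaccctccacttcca
Anxa11, 120 bases at chr14:25842035-25842154, plus strand: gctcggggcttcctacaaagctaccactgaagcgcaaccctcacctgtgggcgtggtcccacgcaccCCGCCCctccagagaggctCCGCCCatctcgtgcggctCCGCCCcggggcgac
Anxa2, 120 bases at chr9:69453563-69453682, plus strand: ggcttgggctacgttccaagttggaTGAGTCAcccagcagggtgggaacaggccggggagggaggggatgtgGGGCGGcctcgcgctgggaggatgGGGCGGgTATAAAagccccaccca

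The Anxa1 window held 1 match to GGAATG, the TEAD motif, at -236 from the start and on the opposite strand, and 1 TATAAA at -32, and its GC content was 47.3%. Neither TGANTCA, the AP-1 motif, nor GGGCGG, the Sp1 motif, nor the ER stress element (CCAAT and CCACG separated by 9 bases) was among its letters. The Anxa11 window had a GC content of 59.7% and 3 matches to GGGCGG, from -53 to -15, and none to the other motifs. The Anxa2 window had 1 TGANTCA at -95, 3 GGGCGG, of which that at -190 lies outside the stretch printed, and 1 TATAAA at -17. No member's window held the ER stress element. Among 32851 promoter windows of the same length, 14.7% held GGAATG, 13.6% TATAAA, 7.81% TGANTCA, 35.7% GGGCGG and 0.119% the ER stress element. TATAAA was added to the search after these sequences had been seen, and a match is a description of the letters and not of a bound site.

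The annexins differed widely in level. Per kilobase of the longest coding transcript, the vehicle means were 53.2 CPM for Anxa6, 47.7 for Anxa5, 46.9 for Anxa7, 18.3 for Anxa2, 15.5 for Anxa11, 13.7 for Anxa4, 2.22 for Anxa1 and 2.14 for Anxa3 (n = 4 mice). Anxa6, at 51.3 to 55.9 in the vehicle libraries, lay above Anxa7, at 43.8 to 50.8, while Anxa5, at 31.9 to 67.9, overlapped both. In CPM without division by length, the vehicle means were 132 for Anxa6 and 139 for Anxa7, with overlapping ranges. The order of Anxa6 and Anxa7 therefore depends on the length used. Per kilobase, Anxa2, Anxa11 and Anxa4 also overlapped, at 9.57 to 29.9, 14.6 to 16.1 and 12.4 to 15.5, and so did Anxa1 and Anxa3, at 1.82 to 2.54 and 1.36 to 2.80. In IXA4 livers Anxa1 stood at 5.91 ± 1.58 CPM per kilobase (SD, n = 4) and Anxa3 at 2.26 ± 0.706, and the ranges of the pair, 4.72 to 8.20 and 1.51 to 3.21, did not overlap. This separation depends on the length used, which was chosen after levels over all exons had been seen. Over all exons Anxa1 is 2608 bases long, against 1674 for its longest coding transcript, while Anxa3 is 1597 by either measure. With the length over all exons, the IXA4 ranges of the pair overlap.

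**Figure D1:**
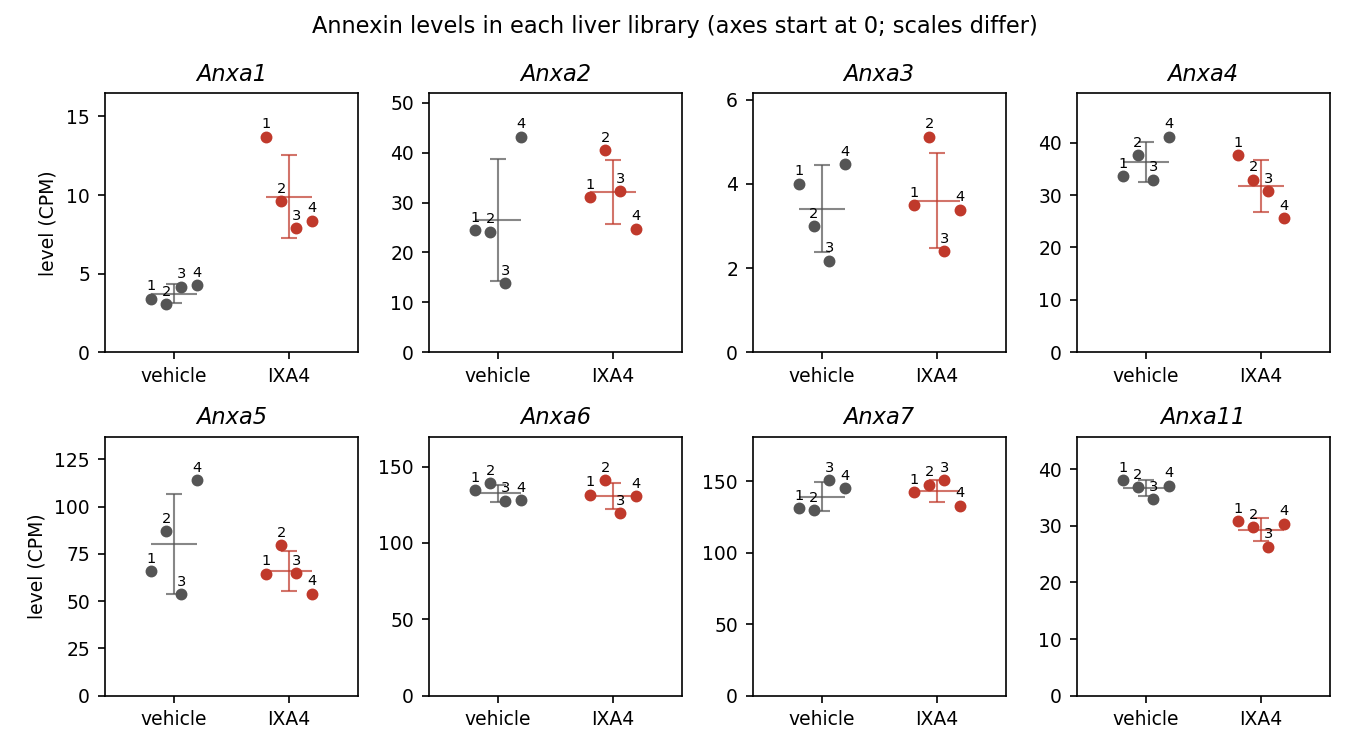
Level of each annexin in CPM (vertical axes, each from 0) in the vehicle and IXA4 libraries, numbered by replicate, with bars for the mean and SD of 4 mice. The Anxa1 points of the IXA4 group, at 7.90 to 13.7 CPM, all lie above the vehicle points, the Anxa11 points of the IXA4 group lie below them, and the groups overlap in the other 6 panels.

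Anxa1 was the only one of the 8 annexins that was called higher in IXA4-treated livers, and none was called lower. Annexin A1, once known as lipocortin, is a glucocorticoid-induced protein that restrains leukocyte recruitment. The 4 IXA4 libraries held 243, 165, 138 and 153 reads of Anxa1, or 13.7, 9.61, 7.90 and 8.37 CPM. The vehicle libraries held 63, 55, 69 and 78 reads, or 3.41, 3.05, 4.17 and 4.25 CPM. Every IXA4 liver lay above every vehicle liver, IXA4 replicate 1 was the highest, and the vehicle livers spanned 1.39-fold. The means were 9.90 ± 2.65 CPM with IXA4 and 3.72 ± 0.586 CPM with vehicle (SD, n = 4), a 2.66-fold rise, or a log2 fold change of 1.41 with a standard error of 0.196 and a 95% interval of 0.99 to 1.83 (adjusted p = 0.00121, edgeR's quasi-likelihood F test with Benjamini-Hochberg adjustment over all genes tested). In the same test 3.64% of all genes were called higher and 0.99% lower, and the members' count rests on Anxa1 alone. Anxa1 ranked 75 of 12427 by p and 161 by size of rise. Every IXA4 library lay above every vehicle library for 7.44% of genes tested and below for 5.24%. Without IXA4 replicate 1 the log2 fold change of Anxa1 was 1.21 (adjusted p = 0.00213, edgeR).

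Anxa1 supplied a small part of the family's reads. Of the reads of all annexins in a library, its share was 0.660% to 0.989% with vehicle and 1.80% to 2.99% with IXA4. Summed over the 8 genes, annexin levels were 420 to 517 CPM with vehicle and 410 to 486 CPM with IXA4, so the total overlapped between the groups. Anxa1 lies on the minus strand at chr19:20447918-20465434 of the build used for alignment (NCBIM37), and none of the 1673 stretches of 50 bases in its transcripts, the length of the reads, occurs in a transcript of another coding gene.

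Anxa11 had the opposite layout with a much smaller difference. Annexin A11 has a long N-terminal end that binds the calcium sensors S100A6 and ALG-2, and it links RNA granules to lysosomes. Its reads numbered 545, 510, 459 and 555 with IXA4, or 30.8, 29.7, 26.3 and 30.4 CPM, and 703, 663, 573 and 680 with vehicle, or 38.1, 36.8, 34.6 and 37.1 CPM. All 4 IXA4 livers lay below all 4 vehicle livers, as for 5.24% of genes tested. The means were 29.3 ± 2.05 and 36.6 ± 1.44 CPM (SD, n = 4), with a log2 fold change of -0.32, a standard error of 0.0893 and a 95% interval of -0.52 to -0.13. The difference did not pass the threshold (adjusted p = 0.0605, edgeR), whereas DESeq2 put it at an adjusted p of 0.0250. The count of 0 annexins called lower therefore refers to edgeR, in which Anxa11 alone of the members had an unadjusted p under 0.05 in that direction, and DESeq2 called 1.

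Anxa7 encodes synexin, the annexin closest to Anxa11 in having a long N-terminal end, and the pair lies on chromosome 14, at chr14:21274483-21299355 for Anxa7 and chr14:26661669-26706290 for Anxa11 (NCBIM37). Anxa7 stood at 142, 147, 150 and 133 CPM with IXA4 and at 131, 130, 151 and 145 CPM with vehicle. The groups overlapped, with a log2 fold change of 0.04 and a 95% interval of -0.15 to 0.23 (adjusted p = 0.844, edgeR). Taken within each library, which removes the scaling, the log2 ratio of Anxa7 to Anxa11 reads was 2.29 ± 0.168 in IXA4 livers and 1.92 ± 0.154 in vehicle livers (SD, n = 4). The IXA4 range of 2.13 to 2.52 lay above the vehicle range of 1.78 to 2.12, a difference of 0.37 (exact permutation test, two-sided, p = 0.0286, the lowest value that 4 against 4 allows). Adjusted over the 4 ratios examined it was 0.114, past no threshold.

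Anxa2 varied more between mice of a group than between groups. Annexin A2 forms a tetramer with S100A10 at the cell surface, which binds plasminogen and its activator. Its levels were 31.1, 40.5, 32.3 and 24.8 CPM with IXA4 and 24.5, 24.2, 13.8 and 43.2 CPM with vehicle. The lowest and the highest of all 8 livers were both vehicle livers, replicates 3 and 4, which differed 3.12-fold, against 1.63-fold among IXA4 livers. The log2 fold change of 0.28 had a 95% interval of -0.45 to 1.02 (adjusted p = 0.690, edgeR). Leaving out vehicle replicate 3 gave 0.08 and leaving out vehicle replicate 4 gave 0.62, and neither passed the test (adjusted p = 0.900 and 0.181, edgeR).

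Anxa5 shared the order of the vehicle livers at its ends. Annexin A5 binds phosphatidylserine and is the protein used to stain dying cells. It stood at 64.6, 79.8, 64.7 and 53.9 CPM with IXA4 and at 65.8, 86.8, 53.5 and 114 CPM with vehicle. Vehicle replicate 4 was again the highest of the 8 and vehicle replicate 3 the lowest, a 2.13-fold spread. The log2 fold change was -0.28, with a 95% interval of -0.78 to 0.21 (adjusted p = 0.537, edgeR), and -0.07 without vehicle replicate 4.

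Anxa6 varied little among the livers of either group. Annexin A6 carries a duplicated core and is known for its part in cholesterol and endosome traffic. Its levels of 132, 141, 120 and 131 CPM with IXA4 and 135, 139, 128 and 128 CPM with vehicle overlapped. The vehicle livers spanned 1.09-fold and the IXA4 livers 1.18-fold. The log2 fold change was -0.02, and its 95% interval of -0.20 to 0.17 bounds any difference in either direction (adjusted p = 0.930, edgeR). The log2 ratio of Anxa5 to Anxa6 reads was -1.003 ± 0.201 with IXA4 and -0.78 ± 0.475 with vehicle (SD, n = 4), and the difference of -0.22 was smaller than the vehicle SD but larger than the IXA4 SD (two-sided exact permutation test, p = 0.486, adjusted 0.486 over the 4 ratios).

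Anxa4 and Anxa3 did not pass the test either. Annexin A4 is abundant in epithelia such as bile ducts. It stood at 37.7, 33.0, 30.7 and 25.6 CPM with IXA4 and at 33.6, 37.6, 33.0 and 41.2 CPM with vehicle, a log2 fold change of -0.20 with a 95% interval of -0.46 to 0.07 (adjusted p = 0.421, edgeR). Of 2996 stretches of 50 bases in its transcripts, 34 also occur in other coding genes, so a small part of its reads could have been assigned elsewhere. Anxa3 had the fewest reads of the 8 members, with 62, 88, 42 and 62 with IXA4 and 74, 54, 36 and 82 with vehicle, or 2.40 to 5.13 CPM and 2.18 to 4.47 CPM. Its log2 fold change of 0.07 had a wide 95% interval of -0.50 to 0.65 (adjusted p = 0.909, edgeR).

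Across the 8 annexins, 4 log2 fold changes were positive and 4 negative, with a median of 0.01 against -0.01 over all genes tested. The other annexins of the table were not called by edgeR or DESeq2, and none had an unadjusted p under 0.05. Anxa8, an epithelial annexin, had 44, 26, 36 and 10 reads with IXA4 and 11, 26, 6 and 22 with vehicle, and its log2 fold change of 0.86 had a 95% interval of -0.18 to 1.90 (adjusted p = 0.362, edgeR). Anxa9 and Anxa13 reached at most 1.35 and 1.09 CPM in any library, with log2 fold changes of -0.18 and 0.08, and Anxa10 had 0 reads in all 8 libraries.

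**Figure D2:**
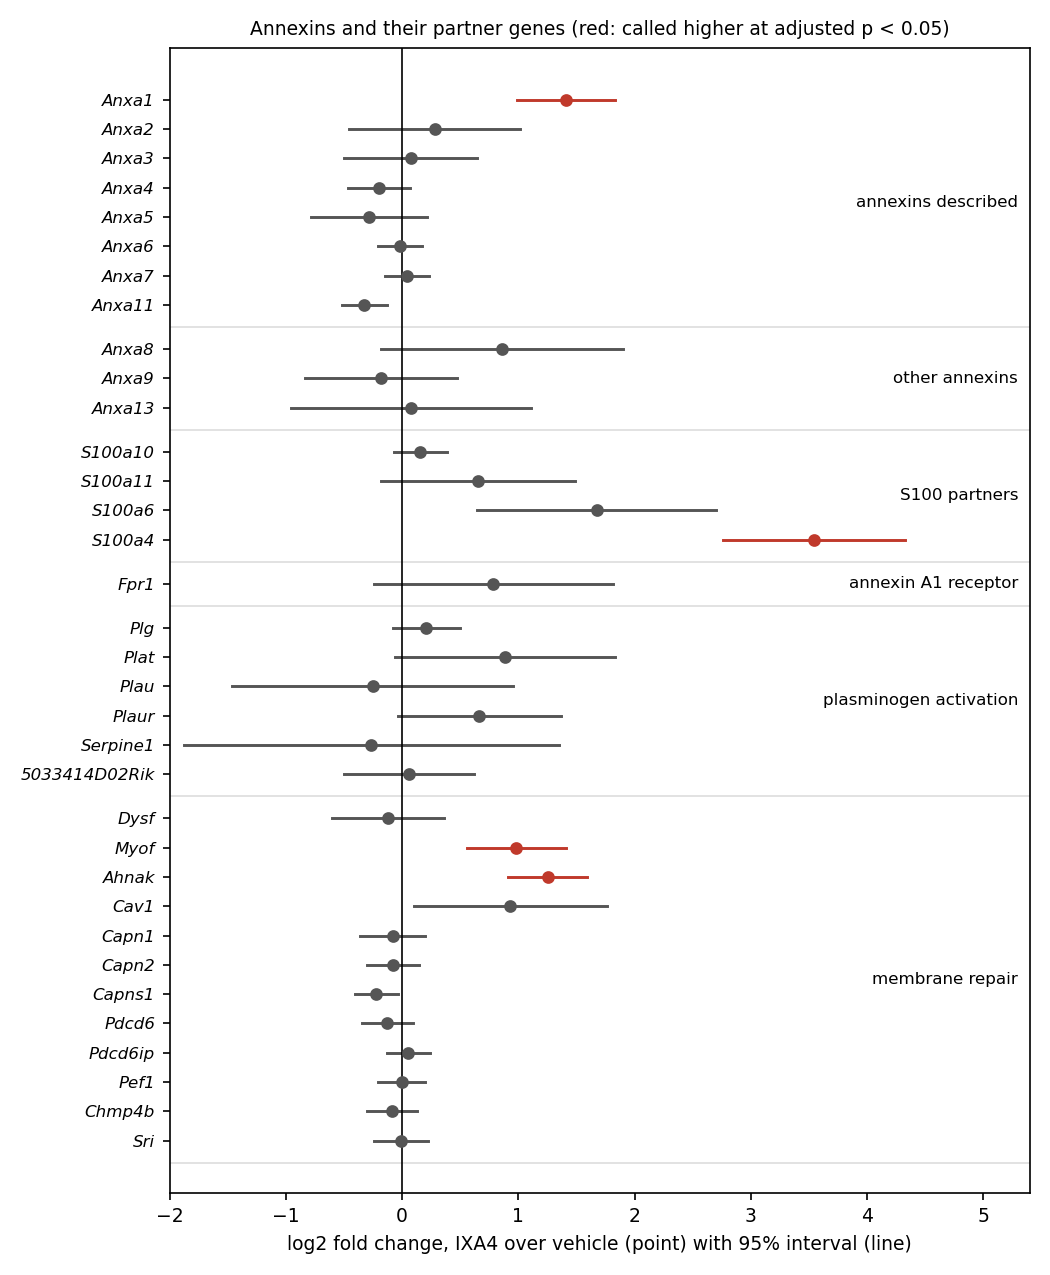
Log2 fold change of IXA4 over vehicle (horizontal axis) for the annexins and their partner genes, as points with 95% intervals, 4 mice in each group, with red marking adjusted p under 0.05. Anxa1 at 1.41 stands apart from the other 7 annexins described, which lie between -0.32 and 0.28, and S100a4 at 3.54 is the highest point.

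Of 5 S100 proteins known to bind annexins, 4 were tested, 1 was called higher and none lower, against 3.64% and 0.99% of all genes. S100a4, a protein of fibroblasts and macrophages that binds annexin A2, had 133, 136, 68 and 71 reads with IXA4 and 9, 4, 12 and 10 with vehicle. Its level rose from 0.495 ± 0.208 to 5.80 ± 2.22 CPM (SD, n = 4), with no overlap and a log2 fold change of 3.54 ± 0.361 (SE, adjusted p = 0.000141, edgeR). With 9 and 4 reads in vehicle replicates 1 and 2, S100a4 passed the filter on low counts through the IXA4 libraries. The list's 1 call therefore rests on a gene that was tested only because it was high with IXA4. In 2 of the 4 tested, S100a4 and S100a6, every IXA4 library lay above every vehicle library, as for 7.44% of genes tested. S100a6, the partner of annexin A11, is named because its groups did not overlap, a choice made after its values were seen. It stood at 9.37, 10.8, 4.58 and 4.49 CPM with IXA4 and at 1.30, 2.05, 1.33 and 4.42 CPM with vehicle, where replicate 4 came just under the lowest IXA4 liver. Its log2 fold change of 1.67 did not pass the test (adjusted p = 0.0799, edgeR), and without vehicle replicate 4 it was 2.22 (adjusted p = 0.0108, edgeR). DESeq2 put it at an adjusted p of 0.000725 over all 8 libraries.

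S100a10, the usual partner of annexin A2, is the most abundant of these genes that was not called, at 66.2, 71.1, 63.2 and 54.7 CPM with IXA4 and 56.8, 57.7, 50.5 and 64.0 CPM with vehicle. Its log2 fold change was 0.16, with a 95% interval of -0.07 to 0.38 (adjusted p = 0.459, edgeR). The log2 ratio of Anxa2 to S100a10 reads was -1.003 ± 0.147 with IXA4 and -1.23 ± 0.532 with vehicle (SD, n = 4). The difference of 0.22 was smaller than the vehicle SD but larger than the IXA4 SD (two-sided exact permutation test, p = 0.486, adjusted 0.486 over the 4 ratios). S100a11, the partner of annexin A1, had a log2 fold change of 0.65 (95% interval -0.18 to 1.49, adjusted p = 0.386, edgeR), a value made uncertain by 108 of its 462 stretches of 50 bases that also occur in the gene Gm7665. The log2 ratio of Anxa1 to S100a11 reads was 1.64 ± 0.484 with IXA4 and 0.95 ± 0.653 with vehicle, with overlapping ranges (two-sided exact permutation test, p = 0.171, adjusted 0.343 over the 4 ratios).

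The receptors of annexin A1 were scarce. Of 3 formyl peptide receptor genes in the table, Fpr1 alone was tested, at 1.15 to 3.56 CPM with IXA4 and 0.302 to 2.24 CPM with vehicle, with a log2 fold change of 0.79 (95% interval -0.24 to 1.81, adjusted p = 0.396, edgeR), and DESeq2 did not call it. Fpr2 had 7 to 24 reads with IXA4 and 5 to 16 with vehicle, under the filter, and Fpr3 had 0 reads in every library. Of the 6 genes of plasminogen activation that were tested with Anxa2 in view, none was called by edgeR in either direction, none had an unadjusted p under 0.05 and DESeq2 also called 0. The most abundant of them, Plg, which encodes plasminogen, had a log2 fold change of 0.21 (95% interval -0.08 to 0.50, adjusted p = 0.427, edgeR).

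Among 12 tested genes of membrane repair, 2 were called higher and none lower, against 3.64% and 0.99% of all genes. Ahnak, a giant scaffold that binds the complex of annexin A2 and S100A10, stood at 21.9, 30.3, 19.6 and 20.8 CPM with IXA4 and at 7.85, 10.2, 9.43 and 11.3 CPM with vehicle, a log2 fold change of 1.25 ± 0.157 (SE, adjusted p = 0.000600, edgeR). Myof, which encodes the membrane fusion protein myoferlin, stood at 7.40, 8.33, 5.32 and 6.18 CPM with IXA4 and at 2.44, 3.94, 3.87 and 3.54 CPM with vehicle, a log2 fold change of 0.98 ± 0.197 (SE, adjusted p = 0.0132, edgeR). Neither gene overlapped between groups, with IXA4 above vehicle as for 7.44% of genes tested. The list's median was -0.04, and its most abundant member, Capns1, the small subunit of the calpains, was at -0.22 and not called (adjusted p = 0.185, edgeR). Every IXA4 library lay below every vehicle library for Capns1, as for 5.24% of genes tested. Capns1 was the sole negative member with an unadjusted p under 0.05 in edgeR, against 3 positive, Ahnak, Myof and Cav1. Cav1 was at 0.93 and not called (adjusted p = 0.204, edgeR). DESeq2 called 2 of the list higher and 0 lower.

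The genes whose profile over the 8 libraries was most like that of Anxa1 were Lum, Col6a1, Ptgis, Gmppa and Ahnak. Likeness was measured as the root-mean-square difference of log2 CPM, each gene centred on its mean over the vehicle libraries, among 7988 genes averaging 5 CPM or more, and was 0.189 for Lum, 0.199 for Col6a1, 0.293 for Ptgis, 0.305 for Gmppa and 0.306 for Ahnak. Lum encodes lumican, a collagen-binding proteoglycan, Col6a1 a chain of collagen VI, Ptgis prostacyclin synthase and Gmppa a regulatory subunit of GDP-mannose synthesis. Against their vehicle means, the IXA4 livers stood at 1.86, 1.36, 1.08 and 1.16 (log2) for Anxa1 and at 1.88, 1.38, 1.00 and 1.45 for Lum, so IXA4 replicate 1 was highest and replicate 3 lowest for both. Since Anxa1 was picked for this search by its call, genes with a rise of similar size come first by construction.

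**Figure D3:**
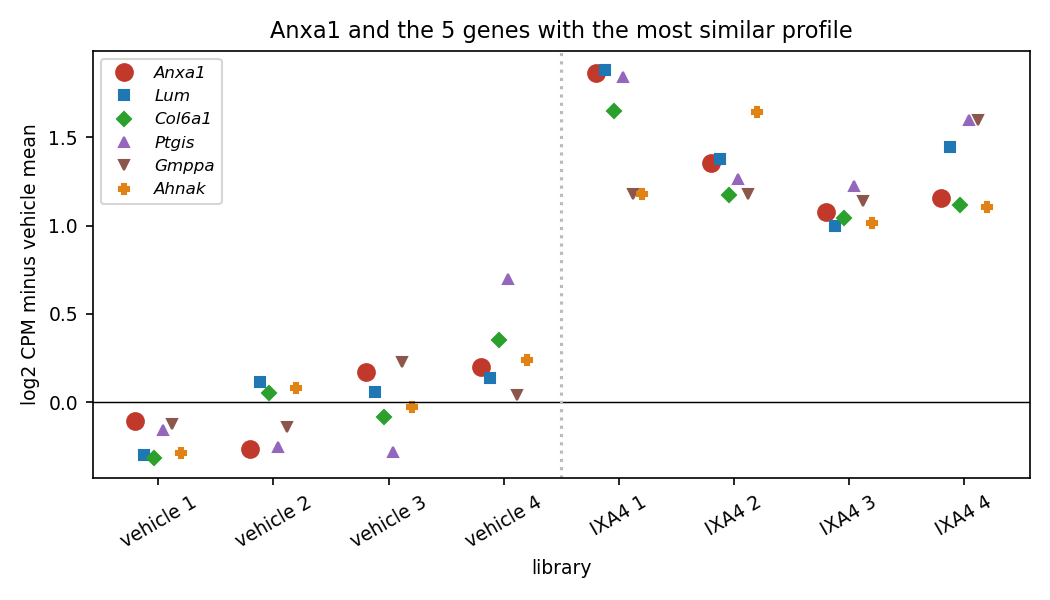
Level of Anxa1 and of the 5 genes with the most similar profile in each library, as log2 CPM minus the mean log2 CPM of the vehicle libraries (vertical axis), 1 point per gene and library. All 6 genes lie between 1.00 and 1.88 in the 4 IXA4 libraries, and IXA4 replicate 1 is the highest for Anxa1, Lum, Col6a1 and Ptgis but not for Gmppa and Ahnak.

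Marker genes of several liver cell types also differed between the groups. Of 13 markers of stellate cells and fibroblasts, all of which were tested, 6 were called higher and 1 lower, against 3.64% and 0.99% of all genes, and their summed level was 208 to 290 CPM with vehicle and 334 to 581 CPM with IXA4, without overlap. Col1a1, a collagen I chain, had the largest rise at 2.94 and Reln, a marker of quiescent stellate cells, the largest fall at -0.92 (log2, adjusted p = 0.0140 and 0.00441, edgeR). None of the 13 was at 0 in all libraries. Of 8 cholangiocyte markers 5 were tested, and their sum was 5.25 to 6.05 CPM with vehicle and 10.1 to 14.3 CPM with IXA4. Krt19, a keratin of bile ducts, was the 1 called higher, at 1.30, against 3.64% of all genes, and Epcam was at 0.37 (adjusted p = 0.0336 and 0.553, edgeR). Krt7, Krt19, Sox9 and Muc1 had an unadjusted p under 0.05 in edgeR, all 4 higher, and DESeq2 called 1 higher. With 4 reads in each of vehicle replicates 1 and 4, Muc1 passed the filter on low counts through the IXA4 libraries. The part of these cell types in the rise of Anxa1 was not tested.

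Mesothelial markers overlapped, at 7.20 to 21.5 CPM with vehicle and 9.14 to 40.5 CPM with IXA4. IXA4 replicate 1 was the highest, as it was for the neutrophil sum at 15.6 CPM and the lymphocyte sum at 4.74 CPM. The part of these cell types in the level of Anxa1 was not tested either. IXA4 replicate 2 was highest for the stellate cell and fibroblast sum (581 CPM) and the recruited macrophage sum (142 CPM). IXA4 replicate 3 led the cholangiocyte sum (14.3 CPM), and vehicle libraries led the Kupffer cell, hepatocyte and sinusoidal endothelial sums. Of the 6 mesothelial markers tested, Upk1b, a uroplakin, was called higher at 1.71 (adjusted p = 0.0223, edgeR), against 3.64% of all genes, and Gpm6a was lowest at -0.12. In edgeR 2 had an unadjusted p under 0.05, Upk1b and Lrrn4, both higher, and DESeq2 called 2 higher. Myeloid markers also overlapped in sum, with 0 called by edgeR or DESeq2 of 8 Kupffer cell markers, 6 recruited macrophage markers and 3 neutrophil markers tested. In these 3 lists the extremes were 0.85 for Marco and -0.52 for Clec4f, 0.89 for Lyz2 and 0.13 for Itgax, and 0.84 for S100a9 and 0.39 for Ngp (log2), and Lyz2 alone of the genes tested in these lists had an unadjusted p under 0.05. No lymphocyte marker had enough reads to be tested, and their sum was at least 1.46 and at most 4.74 CPM. Of 8 sinusoidal endothelial markers 2 were called lower, Oit3 at -1.15 and Kdr at -0.93 (log2, adjusted p = 0.0266 and 0.0115, edgeR), Kdr being named after its values were seen, against 0.99% of all genes. Stab2 was the highest of the 8, at -0.37 (log2, adjusted p = 0.382, edgeR). DESeq2 called 3 of the 8 lower, 5 had an unadjusted p under 0.05 in edgeR, all lower, and the list's sum was 92.6 to 167 CPM with vehicle and 71.4 to 106 CPM with IXA4.

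**Figure D4:**
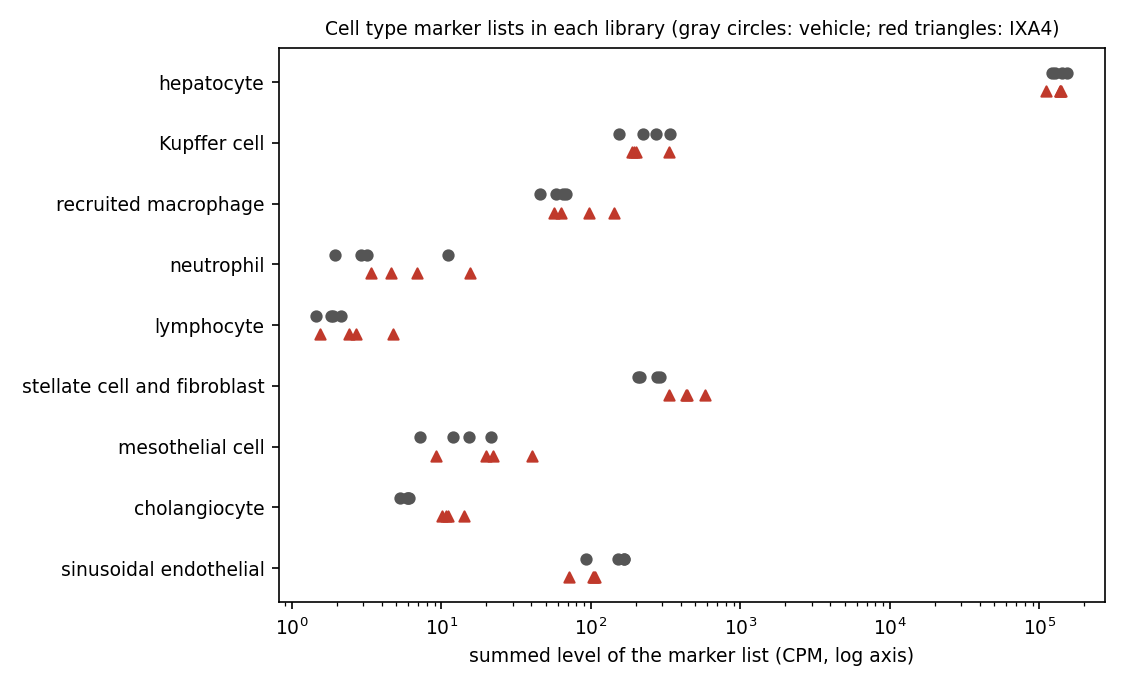
Summed level of each cell type's marker genes in CPM (horizontal log axis), 1 symbol per library, gray circles for vehicle and red triangles for IXA4, 4 mice each. The stellate cell and fibroblast sums, 208 to 290 against 334 to 581 CPM, and the cholangiocyte sums, 5.25 to 6.05 against 10.1 to 14.3 CPM, do not overlap between groups. The separation of the stellate cell and fibroblast sums rests on the collagens Col1a1, Col1a2 and Col3a1.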

How the data were processed

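Liver RNA of 8 DIO mice, 4 given IXA4 and 4 given vehicle, was read single-end over 50 bases. Alignment by the authors was to mouse MGSCv37 (DNAstar SeqManPro). They quantified reads with ArrayStar and QSeq, and deposited raw counts for 26166 symbols, of which 7170 had no read. How strand and multiply mapping reads were handled is not stated in the sources used here. A second deposited file of the authors' DESeq comparison (fold changes and p-values) was not used.

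The compound columns carry a code number in place of a name and were taken as IXA4, the other group being named as vehicle. Genes kept by filterByExpr (minimum count 10, minimum total 15) were normalized by TMM and tested across all genes with edgeR 4.0.16 (glmQLFit robust, R 4.3.3), with Benjamini-Hochberg adjustment and calls at 0.05. Standard errors follow from the F statistic. Dispersion without robust weights and full library totals were set after first results had been seen. DESeq2 1.42.0, other normalizations and filters, and leaving out each library were the alternatives. The fits were tested on simulated data. Length is that of the longest coding transcript (GENCODE, NCBIM37), chosen after levels over all exons had been seen. Protein features were not computed.

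The members and lists were chosen with earlier results of these data known. All members are named, with called members and the most abundant uncalled member of each pathway list, the extremes of each marker list, and the 5 genes nearest to a called annexin.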

Additional observations from a re-analysis of the deposited data

Results flagged for a closer look

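Anxa13, an annexin of the intestinal epithelium with few reads in the liver, had 1 library apart from the others of its group. IXA4 replicate 4 held 5 reads, or 0.274 CPM, against 0.687 CPM in the next lowest IXA4 library, a gap above Dixon's 95% limit for 4 samples. It was 1 of 30 groups of 4 libraries examined, over 15 genes, and chance flags about 1 in 20 groups.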

How the results depend on the processing

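With 4 mice in each group and few reads of Anxa3, Anxa8 and the receptors, the intervals of these genes stayed wide, and depth limits what could be detected. Anxa1 was called higher under all 14 alternatives, with log2 fold changes of 1.21 to 1.504 when a library was left out and 1.38 to 1.42 otherwise. The first fit had robust dispersion and library sizes over kept genes, and the main settings were set after its results had been seen. Kept as an unplanned alternative, that first fit changed no call or count. DESeq2 called 1 annexin higher (Anxa1), 1 annexin lower (Anxa11) and 2 S100 partners higher (S100a4 and S100a6). Over all genes tested it called 636 higher and 256 lower, against 452 and 123 with edgeR. With at least 10 counts in every library, 0 S100 partners were called, since S100a4 was then not tested. Leaving out 1 library at a time gave 261 to 613 genes called higher, 43 to 162 lower and 1 to 2 S100 partners higher, 2 without vehicle replicate 4. The fewest genes were called without vehicle replicate 1, at 261 higher and 43 lower. Over the libraries left out, the log2 fold change of Anxa3 ranged from -0.13 (IXA4 replicate 2 omitted) to 0.23 and was -0.08 with vehicle replicate 3 omitted. That of Anxa6 ranged from -0.0505 to 0.0199 (IXA4 replicate 3 omitted) and was 0.0052 with vehicle replicate 2 omitted. The cause of these changes was not tested. None of the members but Anxa3 and Anxa6 changed direction, and none but Anxa11, under DESeq2, changed call. Membrane repair genes called higher numbered 3 without vehicle replicate 3 and 2 otherwise. The median of all genes lay between -0.05 and 0.01 under every alternative. No paired analysis was possible because the labels of the groups share only replicate number 1 and the count columns carry no animal numbers.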
